A study of Mus musculus with 12 samples.

Results

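The 76 genes described here encode the proteins of the cytosolic ribosome. They were chosen by name: protein-coding rows whose symbol is Rpl or Rps and a number, with an optional letter suffix, plus the stalk proteins Rplp0, Rplp1 and Rplp2 and the small-subunit protein Rpsa. Rps27l, pseudogene rows and the Rps6k kinases were left out. The 76 genes stand among 33641 genes with reads, and 74 of them were among the 15130 genes with enough reads to test; Rpl3l and Rpl10l were not. Of the 76, 47 belong to the large subunit and 29 to the small subunit. Rpl10, Rpl36a, Rpl39 and Rps4x were not analysed here.

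Each ribosome holds 1 copy of most of these proteins, so cells make them in matched amounts. Their messages are short and abundant, and in vertebrates nearly all of them begin with a run of pyrimidines, the terminal oligopyrimidine (TOP) motif, through which growth signalling by mTORC1 and the RNA-binding protein Larp1 controls their translation and stability. Mammalian genomes also carry many processed pseudogenes of these genes, whose sequences resemble the parent messages.

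RNA sequencing was done on untreated peritoneal macrophages of mice at day 0. The study's title concerns the activation of MDA5, a cytosolic sensor of double-stranded RNA encoded by Ifih1, in cells that lack SAMHD1, an enzyme that degrades deoxynucleoside triphosphates. There were 4 genotypes of 3 libraries each: WT, SAMHD1 KO (Samhd1 deficient, MDA5 present), MDA5 KO (MDA5 deficient, SAMHD1 present) and SAMHD1 MDA5 DKO, which lacks both and is called DKO here. The labels give no strain, age or sex, do not say whether the mice of a group were pooled, and do not say that the libraries came from separate animals, so p-values measure only the spread between these libraries. Because the samples are bulk RNA, fewer cells of a type and less RNA per cell cannot be told apart.

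The libraries held 33234361 to 58345425 reads on genes. Values below are normalised reads, that is, reads divided by a size factor for each library, or log2 of these plus 1. Ifih1 stood at 3357, 2421 and 816 normalised reads in WT 1, 2 and 3 and at 3163 to 3745 in SAMHD1 KO, against 0 to 19.98 in MDA5 KO and 0.881 to 41.9 in DKO. Samhd1 stood at 7067 to 17124 in WT and 14952 to 17462 in MDA5 KO, against 2954 to 3689 in SAMHD1 KO and 1747 to 4960 in DKO. Both targeted genes therefore followed the labels, and WT 3 had the lowest WT value of each. Macrophage markers such as Adgre1 (113112 to 243370 in every library) and Csf1r (61688 to 116327) were high throughout. The lysozyme gene Lyz2 stood at 215984 in WT 3 and between 1457330 and 4930210 in the other 11 libraries. The summed level of 7 B cell markers was 12753 in WT 2 and 130 to 798 in the other libraries, and that of 7 mast cell markers was 12300 in WT 2, 772 in WT 3 and 134 in WT 1. The SAMHD1 KO libraries 2 and 3 had 1451 and 1248 of the mast cell markers and library 1 had 184, with 174 to 878 in MDA5 KO and 15.0 to 222 in DKO. The summed level of 4 erythroid markers was 518 in WT 3 and 372 to 585 in SAMHD1 KO, SAMHD1 KO 1 highest, and at most 102 in the other 8 libraries. The part of these markers in the results below was not tested. SAMHD1 KO 2 and 3 were the most alike pair of all, with a mean chi-square per gene of 3.17 against at least 7.88 for any other pair. The value exceeds sampling noise of reads, and they were counted as separate libraries. It cannot show that they came from separate RNA samples or animals.

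The start sites of 6 of the genes are shown because they cover the range of behaviour described below: Rps24 and Rps18 were among the most variable between libraries, Rpl4 and Rpl28 among the least, and Rps2 and Rps26 were high in 1 WT library but not in the SAMHD1 KO libraries. Each line gives 20 bases before and 20 bases from an annotated start on (RefSeq, GRCm38.p6). Capitals mark the longest run of C and T that reaches within 10 bases of the start. Where a gene had several annotated starts, the one with the longest run was taken, here and in the counts below.
Rps24: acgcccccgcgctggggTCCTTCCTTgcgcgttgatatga
Rps18: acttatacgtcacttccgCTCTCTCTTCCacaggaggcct
Rpl4: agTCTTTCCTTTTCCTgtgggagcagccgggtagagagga
Rpl28: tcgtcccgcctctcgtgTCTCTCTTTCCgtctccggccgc
Rps2: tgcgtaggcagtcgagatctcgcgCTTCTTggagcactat
Rps26: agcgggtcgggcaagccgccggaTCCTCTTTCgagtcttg

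Rps24 lies at chr14:24490658-24490697 (plus strand), Rps18 at chr17:33955646-33955685 (minus), Rpl4 at chr9:64173367-64173406 (plus), Rpl28 at chr7:4792945-4792984 (plus), Rps2 at chr17:24720043-24720082 (plus) and Rps26 at chr10:128626487-128626526 (minus). The runs are 9, 11, 14, 11, 6 and 9 bases long in that order. Among the genes shown, the variable Rps24 and Rps18 and the steady Rpl4 and Rpl28 carry a run of at least 8 bases. Genes not shown had shorter runs: 7 bases in Rpl39l and 6 in Rps23, both variable, 7 in the steady Rpl10a and 5 in Rplp0. The genes shown therefore do not represent run length among variable or steady genes. Of the 56 ribosomal protein genes matched by symbol to the promoter table, 26 (46.4%) had a run of at least 8 C or T bases reaching within 10 bases of the start, against 15.8% of all 27025 genes in the table. The motif CGGAAG, the core that factors of the ETS family recognise, was present on either strand of the 300-base promoter in 38 of the 56 (67.9%), against 18.8% of all genes. A match describes the letters only.

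The abundance of the messages differed widely between genes of one complex. Per kilobase of transcript, Rps14 was highest at 76908 normalised reads (mean of 12 libraries), and Rps9 stood at 65407 and Rpl8 at 62399. In total normalised reads per gene the highest was Rps3, a small-subunit protein at the messenger RNA entry channel, and Rpl8, Rps9 and Rpl4 were also among the 5 highest. At the low end stood Rpl39l, a copy of Rpl39 best known from testis, at 45.9 per kilobase, Rpl24 at 59.0 and Rps13 at 113. Rpl3l, the copy of Rpl3 known from heart and skeletal muscle, had at most 14.7 normalised reads in any library, and Rpl10l, the testis copy of Rpl10, at most 18.5, in WT 2. Both were near 0 in most libraries.

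**Figure D1:**
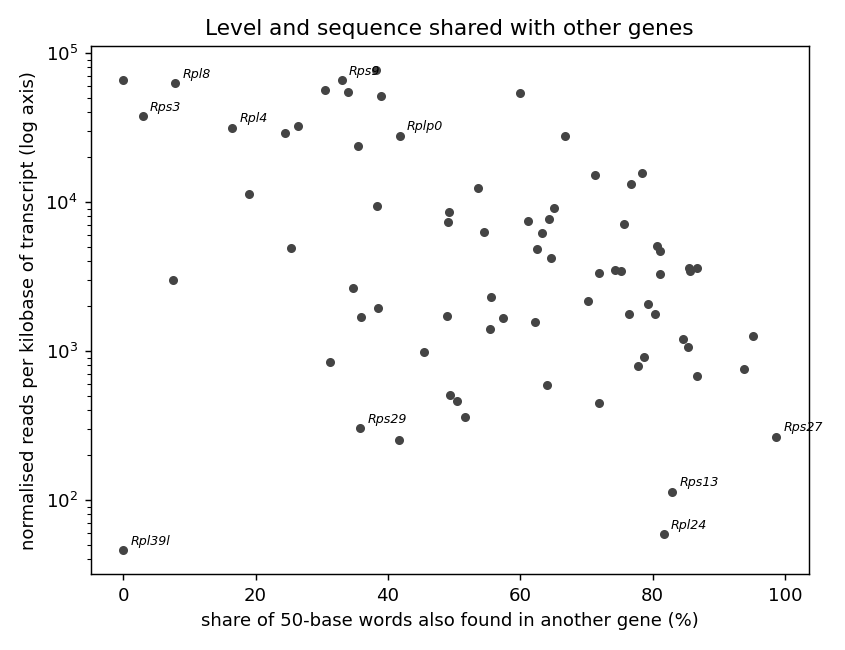
Level of each of the 74 tested ribosomal protein genes (normalised reads per kilobase of transcript, mean of 12 libraries, log axis) against the share of its 50-base words that also occur in another gene's transcript. Rpl24, Rps13 and Rps27 have over 80% of their words in other genes and low levels, and Rps3 and Rpl8 share few words and are high. Not all genes follow this: Rpl39l shares no words and is the lowest, and Rps18 and Rpl3 share over 80% without being low.

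The low values of several genes coincided with sequence that they share with other annotated genes. The longest coding transcript of each gene was split into 50-base words, and a median of 58.7% of the words also occurred in another gene of the annotation (GENCODE M21). In 45 of the 76 genes at least 50% of words were shared, and 3 shared none, among them Rpl39l and Rpl3l. Rpl24 shared 81.7% of its words with 10 genes, Rps13 83.0% with 6 and Rps27 98.6% with 9, whereas Rps3 shared 2.96% and Rpl8 7.86%. Other genes did not follow this order. Rps18 shared 86.7% and Rpl3 85.6%, at 3602 and 3622 normalised reads per kilobase, and Rpl39l, which shared none, was the lowest tested gene. Over the 74 tested genes the share of words and the log2 level per kilobase had a Spearman correlation of -0.39 (Pearson -0.37). This is a description across genes of one data set, which are not independent. How the authors' counting treated reads that match several genes was not tested, so levels of genes with a large shared part are uncertain.

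The ribosomal protein messages made up 1.59%, 1.95% and 4.28% of reads in WT 1, 2 and 3, and 1.09%, 2.46% and 2.29% in SAMHD1 KO 1, 2 and 3. They made up 1.18%, 1.07% and 1.26% in MDA5 KO and 1.01%, 1.18% and 1.02% in DKO. The 6 libraries without MDA5 thus lay in a narrow band, and the 6 with MDA5 were spread out, WT 3 highest and SAMHD1 KO 1 inside the range of the libraries without MDA5. The genotype means were 2.61% ± 1.46 (SD, n = 3) in WT, 1.95% ± 0.746 in SAMHD1 KO, 1.17% ± 0.0915 in MDA5 KO and 1.07% ± 0.0959 in DKO. Rows annotated as ribosomal protein pseudogenes took 1.16%, 1.41% and 3.22% of reads in WT, 0.804%, 1.88% and 1.73% in SAMHD1 KO, 0.789% to 0.945% in MDA5 KO and 0.749% to 0.817% in DKO. Their order over the libraries of WT and of SAMHD1 KO was that of the parent genes.

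**Figure D2:**
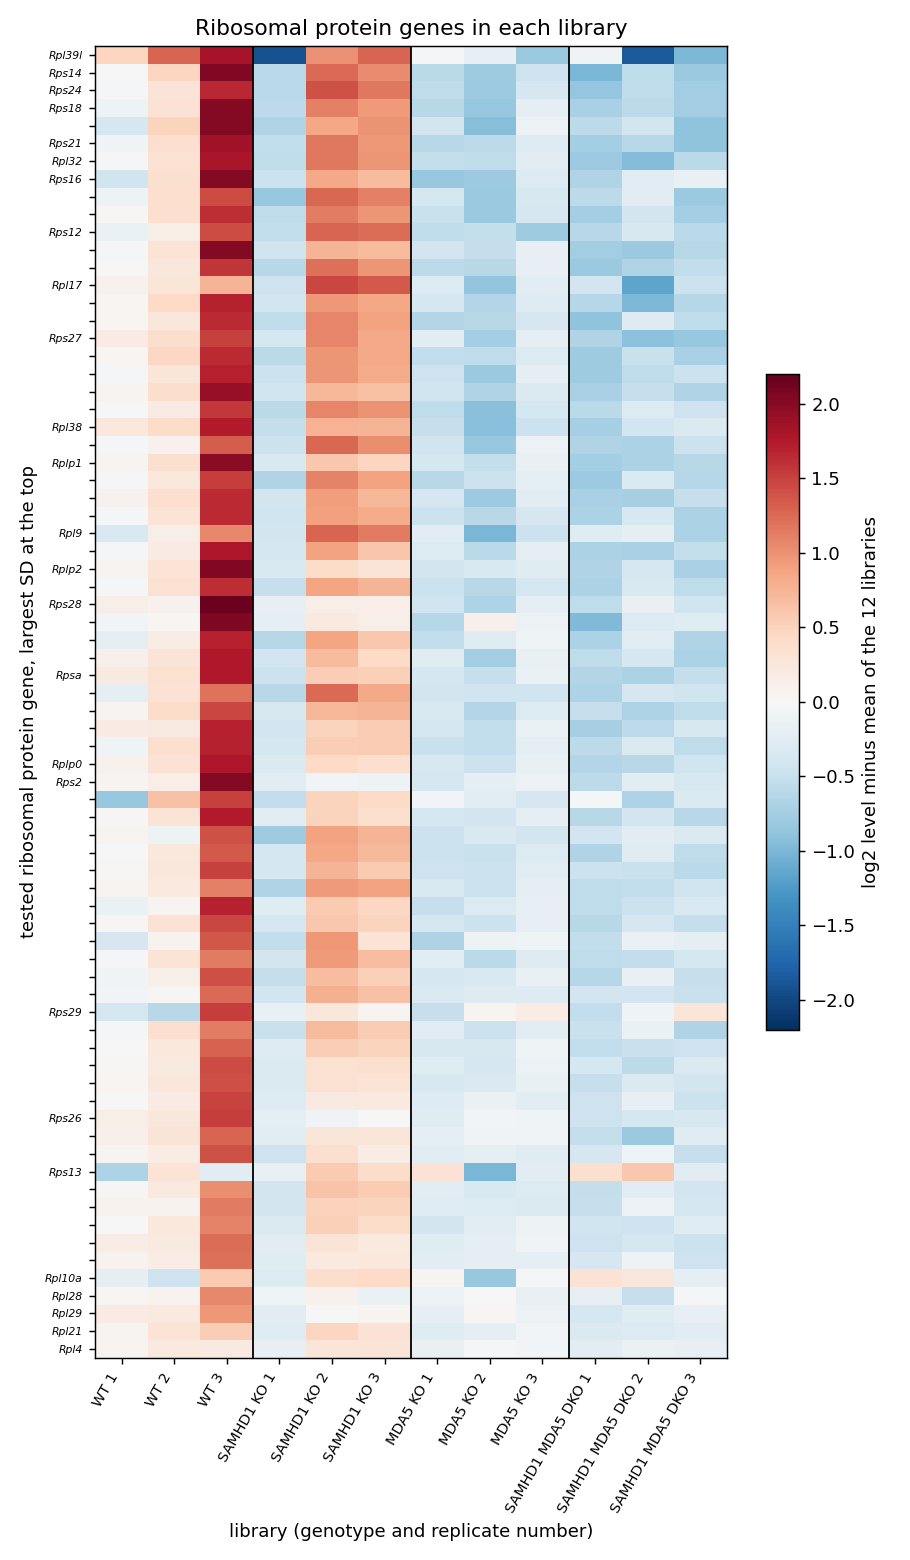
Each row is 1 of the 74 tested ribosomal protein genes, each column a library; colour is the gene's log2 level minus its mean over the 12 libraries, and rows are labelled for genes whose differences are given in the text. WT 3 is red in nearly every row, SAMHD1 KO 2 and 3 in most, and SAMHD1 KO 1, MDA5 KO and DKO are mostly blue.

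Gene by gene the same libraries were mostly highest, while the lowest library varied. WT 3 was the highest library for 69 of the 74 tested genes, against 31.4% of all tested genes. The exceptions were Rpl17, Rpl31 and Rpl9, highest in SAMHD1 KO 2, Rpl4, highest in SAMHD1 KO 3, and Rps13, highest in DKO 2; these were listed after their values were seen. The 3 highest libraries were WT 3, SAMHD1 KO 2 and SAMHD1 KO 3 in 62 of 74 genes, against 10.8% of all tested genes. The lowest library was DKO 1 in 30 genes, MDA5 KO 2 in 14, DKO 2 in 12, DKO 3 in 9 and another in the remaining 9. SAMHD1 KO 1 lay within the range of the 6 libraries without MDA5 for 70 genes and below it for 4, among them Rpl12, Rpl13a and Rpl39l. The median of the genes' log2 deviations from their own means was 1.52 in WT 3, 0.74 in SAMHD1 KO 2, 0.58 in SAMHD1 KO 3, 0.26 in WT 2 and 0.01 in WT 1. It was -0.42 in SAMHD1 KO 1, between -0.50 and -0.22 in MDA5 KO and between -0.58 and -0.40 in DKO.

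Rps14, a small-subunit protein bound near the messenger RNA channel, shows the pattern. With MDA5 present its normalised reads were 36222, 49716 and 147177 (WT) and 23857, 85649 and 74399 (SAMHD1 KO). Without MDA5 they were 23936, 20837 and 26272 (MDA5 KO) and 18008, 24343 and 20552 (DKO). WT lay above both genotypes without MDA5, and SAMHD1 KO overlapped them through its first library. Rps24, a small-subunit protein mutated in Diamond-Blackfan anaemia, stood at 14570, 18096 and 46942 in WT, 9858, 39314 and 32989 in SAMHD1 KO, 8558 to 11547 in MDA5 KO and 8263 to 10044 in DKO. Rps18, a protein of the small-subunit head, stood at 1505, 2018 and 6588 in WT, 1088, 3482 and 3113 in SAMHD1 KO, 904 to 1397 in MDA5 KO and 956 to 1093 in DKO. All of these have SDs over the libraries near the top of the list (0.98, 0.91 and 0.91 in log2), after Rpl39l, whose SD of 1.23 rests on at most 67.6 normalised reads.

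Rpl4, a large-subunit protein that lines the exit tunnel, varied least, with an SD of 0.20. It stood at 49951, 55628 and 55195 in WT, 42549, 57924 and 58707 in SAMHD1 KO, 43070 to 46904 in MDA5 KO and 40583 to 43243 in DKO. Its libraries kept the same split at a small scale, with WT 3 no higher than WT 2. The other genes with small SDs were Rpl21 (0.32), Rpl29 (0.35), Rpl28 (0.37) and Rpl10a (0.42), all of the large subunit.

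In MDA5 KO compared with WT, all 74 tested genes were lower, with a median log2 difference of -0.98, against 45.6% of all tested genes lower and a median over all genes of 0.08. In 64 of the 74 the 3 MDA5 KO libraries lay below all 3 WT libraries, against 14.2% of all tested genes; 55 had an unadjusted p under 0.05 in the same direction, against 10.1%. None passed an adjusted p of 0.05 in limma's moderated test over all genes, where 0.00661% of all genes were called lower; the smallest adjusted p among the ribosomal protein genes was 0.196. The largest differences were in Rpl39l (-1.53 ± 0.82 SE), Rps14 (-1.45 ± 0.51), Rpl38 (-1.43 ± 0.42), Rps18 (-1.30 ± 0.51) and Rps16 (-1.29 ± 0.53). Rpl38, a small large-subunit protein known for its effect on translation of Hox messages in mouse embryos, went from 489, 552 and 1397 normalised reads in WT to 292, 219 and 300 in MDA5 KO. The smallest were in Rps13 (-0.10), Rpl4 (-0.24), Rpl10a (-0.24), Rps29 (-0.27) and Rpl21 (-0.48). Of these, Rpl4 and Rpl21 still did not overlap between the genotypes, because their spread was small.

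The size of this difference rested on WT 3. Without WT 3 the median was -0.51, and without WT 1 it was -1.30. The direction did not rest on WT 3. Over the same libraries as the fit without it, WT 1 and 2 against the 3 MDA5 KO libraries, 72 of 74 genes were lower. The matching share over all tested genes was not counted. The gene calls also depended on how libraries were weighted. Array quality weights of limma gave WT 3 a weight of 0.0558 and SAMHD1 KO 3 one of 9.10, and their estimation reported incomplete convergence. With them, 61 of the 74 genes were called lower in MDA5 KO against WT, against 13.7% of all tested genes. The same limit holds for the weighted calls below.

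In DKO compared with WT, 72 of 74 genes were lower, all but Rps13 and Rpl10a, with a median of -1.10, against 46.9% of all tested genes lower. In 67 the genotypes did not overlap, against 17.1%, and 64 had an unadjusted p under 0.05, against 12.8%; none passed an adjusted p of 0.05 in limma, where 0% of all genes were called lower, the smallest being 0.127. Among the 5 largest differences were Rpl39l (-2.16 ± 0.82 SE), Rps14 (-1.63 ± 0.51), Rps27 (-1.49 ± 0.45) and Rpl32 (-1.49 ± 0.47). Rps27 and Rpl32 stood at 89.3, 104 and 224 and at 23486, 29897 and 83242 in WT, and at 41.4 to 49.5 and 12334 to 15743 in DKO. At the other end were Rps13 (0.44 ± 0.44), Rpl10a (0.14 ± 0.33), Rps29 (-0.30 ± 0.49), Rpl4 (-0.35 ± 0.18) and Rpl21 (-0.59 ± 0.21). Without WT 1, 44 of the 74 were called lower, against 4.51% of all genes tested in that fit, and without WT 3 none were, against 0.0133%, and the median was -0.63. Array quality weights called 67 lower, against 18.3% of all tested genes, and 1, Rpl10a, higher, against 19.8%.

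In DKO compared with SAMHD1 KO, the matching loss of MDA5 where SAMHD1 is absent, all 74 genes were again lower, with a median of -0.79, against 48.3% of all tested genes lower. This comparison shares no library with MDA5 KO against WT. The 2 may still not be independent, since same-numbered libraries of MDA5 KO and DKO were alike for numbers 1 and 3 (mean chi-square 7.88 and 8.68). What these libraries have in common was not tested. In DKO against SAMHD1 KO only 24 genes did not overlap, against 9.13% of all genes, and 36 had an unadjusted p under 0.05, against 5.29%. None passed an adjusted p of 0.05 in limma, where 0.0132% of all genes were called lower; the smallest among the ribosomal protein genes was 0.562. The largest differences were in Rpl17 (-1.47 ± 0.44 SE), Rps24 (-1.38 ± 0.49), Rps14 (-1.36 ± 0.51), Rpl32 (-1.31 ± 0.47) and Rps27 (-1.31 ± 0.45). Rpl17, a protein at the tunnel exit, stood at 435, 1648 and 1517 in SAMHD1 KO and 445, 268 and 430 in DKO. The smallest were in Rps13 (-0.04), Rpl10a (-0.07), Rps29 (-0.17), Rpl28 (-0.19) and Rpl29 (-0.21). SAMHD1 KO 1 set the overlap. Without it the median was -1.16, and 3 genes were called lower, among them Rps24 and Rpl17. Of all genes tested in that fit, 0.684% were called lower. Without SAMHD1 KO 2 or without SAMHD1 KO 3 none of the 74 were called lower, against 0% of all genes in those fits. With 1 library left out, the weakest median was -0.60. Array quality weights, which gave SAMHD1 KO 1 a weight of 0.193, called 68 lower, against 21.4% of all tested genes.

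**Figure D3:**
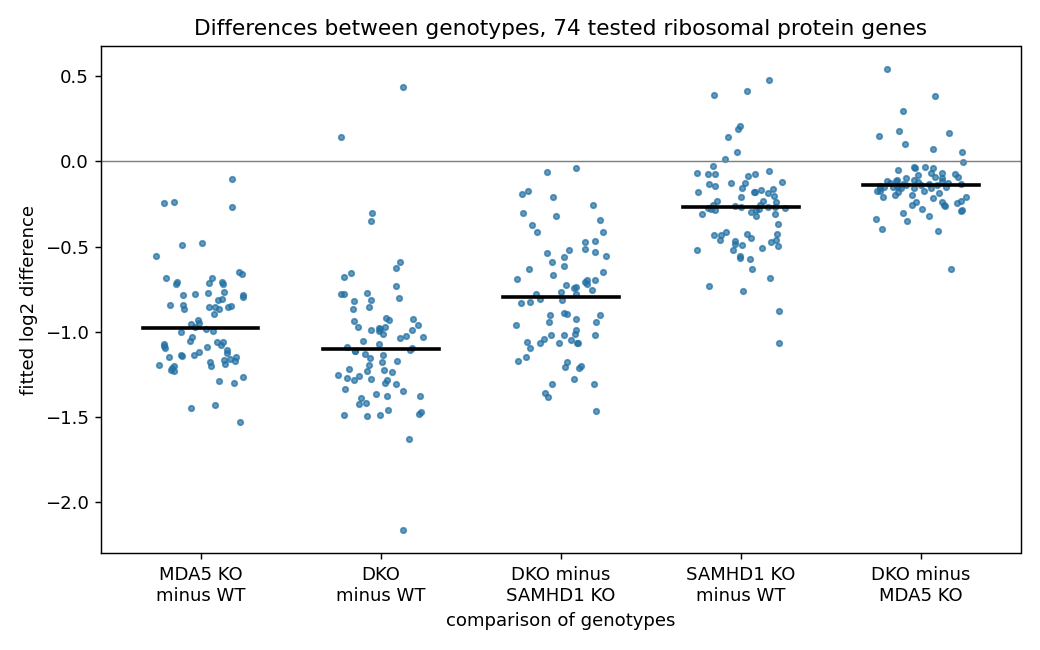
Fitted log2 differences of the 74 tested ribosomal protein genes (points) in 5 comparisons of genotypes, with the median as a bar. The medians are -0.98, -1.10 and -0.79 where MDA5 differs, and -0.27 and -0.14 where only SAMHD1 differs.

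The stalk proteins and Rpsa followed the rest. Rplp0, which anchors the stalk that recruits elongation factors, stood at 35587, 41626 and 113687 in WT, 26782, 44851 and 42564 in SAMHD1 KO, 24052 to 29789 in MDA5 KO and 21276 to 24411 in DKO. Its log2 difference was -1.06 ± 0.36 SE in MDA5 KO against WT and -0.72 ± 0.36 in DKO against SAMHD1 KO, and in both the genotypes did not overlap. Its partners Rplp1 and Rplp2 differed by -1.16 and -1.14 in the former comparison and by -0.93 and -0.70 in the latter. Rpsa, a small-subunit protein also known as the laminin receptor, differed by -1.11 and -0.82. None of these passed the adjusted threshold in limma (adjusted p = 0.196 for all 4 in MDA5 KO against WT).

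When both genotypes without MDA5 were set against both with it, a contrast added after the data were seen, all 74 genes were lower with a median of -0.91, and 68 had an unadjusted p under 0.05, against 13.4% of all tested genes. None passed an adjusted p of 0.05 in limma. The closest were Rps14 (-1.40 ± 0.36 SE, adjusted p = 0.0927), Rps24 (-1.30 ± 0.35, adjusted p = 0.0927), Rps21 (-1.24 ± 0.34, adjusted p = 0.0944) and Rps18 (-1.23 ± 0.36, adjusted p = 0.0971). Without SAMHD1 KO 1, 58 genes were called lower, against 7.93% of all genes tested in that fit, without WT 1, 51, against 5.2%, and without WT 3, 7, against 1.3%. Array quality weights called 70 lower, against 23.9%. No gene had all 6 libraries without MDA5 below all 6 with it, against 1.63% of all tested genes, since SAMHD1 KO 1 lay among or below them.

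Loss of SAMHD1 gave smaller differences. In SAMHD1 KO compared with WT, 66 of 74 genes were lower with a median of -0.27, against 48.3% of all tested genes lower; 3 genes (Rps2, Rps26 and Rpl29) did not overlap, against 7.85%, and the same 3 had an unadjusted p under 0.05, against 5.57%. None passed an adjusted p of 0.05 in limma, the smallest being 0.315. Rps2, at the messenger RNA entry channel, stood at 11478, 12178 and 44553 in WT and 9353, 10510 and 10183 in SAMHD1 KO (-0.88 ± 0.40 SE). The largest difference was in Rpl39l (-1.07 ± 0.82), and Rps28 (-0.76), Rps26 (-0.73) and Rplp2 (-0.68) followed Rps2, while Rpl9 (0.39), Rpl17 (0.41) and Rps13 (0.48) were on the other side. The direction of the median was not stable: leaving out WT 3 gave 0.21, leaving out SAMHD1 KO 1 gave 0.12, and array quality weights gave 0.39. The weights called 44 genes higher, against 24.1% of all tested genes, and 3 (Rps2, Rps26 and Rpl29) lower, against 21%.

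In DKO compared with MDA5 KO, 65 of 74 genes were lower with a median of only -0.14 (-0.08 without MDA5 KO 3), against 50.4% of all tested genes lower. In 11 genes, among them Rplp1, Rps26, Rpl22, Rpsa, Rps21, Rpl32, Rpl11, Rpl3 and Rpl23, the genotypes did not overlap, against 4.1% of all tested genes. None had an unadjusted p under 0.05 in limma, against 0.654% of all genes, and neither array quality weights nor the deposited log2 columns gave a call. In SAMHD1 KO compared with MDA5 KO, all 74 genes were higher with a median of 0.63, against 48.9% of all tested genes higher; only Rps28 did not overlap, against 7.15%, and 16 had an unadjusted p under 0.05, against 4.64%. Rps12 (1.28 ± 0.47 SE), Rpl17 (1.26 ± 0.44), Rpl9 (1.24 ± 0.45), Rps24 (1.23 ± 0.49) and Rps14 (1.18 ± 0.51) differed most, and none passed an adjusted p of 0.05 in limma, the smallest being 0.483. Array quality weights called 66 higher, against 21.7% of all tested genes. Leaving out SAMHD1 KO 1 raised the median to 1.02 and called 2 genes, Rps12 and Rpl17, against 0.737% of all genes tested in that fit.

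Whether MDA5 loss differed with and without SAMHD1 was tested as an interaction. The median over the 74 genes was 0.12, with 57 positive, against 46.4% of all tested genes. None had an unadjusted p under 0.05, against 0.859% of all genes called higher and 2.35% lower at that level, and the smallest adjusted p among them was 0.894 in limma. The values ran from -0.62 in Rpl17 to 0.82 in Rps28. Array quality weights turned the median to -0.59, leaving out WT 3 turned it to -0.34 and leaving out SAMHD1 KO 1 to -0.24. The weights called 21 genes lower, against 5.33% of all tested genes.

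The authors' own tests, given for 1 pair of genotypes at a time and over other sets of genes, made more calls on smaller differences. Their median log2 fold change over the 76 genes was -0.97 in DKO against WT, -0.45 in MDA5 KO against WT and -0.71 in DKO against SAMHD1 KO. The medians fitted here over the 74 tested genes were -1.10, -0.98 and -0.79. In the authors' deposited table of DKO against WT, 59 of the 76 genes had an adjusted p under 0.05 and were lower, against 1093 of all 28313 genes in it (3.86%). The authors' deposited table of MDA5 KO against WT called 34 lower, against 334 of 31391 genes (1.06%), and that of DKO against SAMHD1 KO called 33 lower, against 412 of 27827 (1.48%). For SAMHD1 KO against MDA5 KO the authors' deposited table called 7 higher, against 150 of 31169 (0.481%): Rps9, Rps14, Rps24, Rps3, Rps21, Rpl35a and Rpl17. The authors' deposited tables called none of the 76 in SAMHD1 KO against WT or in DKO against MDA5 KO. The deposited library columns show that the authors had brought WT 3, SAMHD1 KO 2 and DKO 3 and the other libraries to a common mean gene by gene. Both sides were shifted, in opposite directions. The labels do not say what the set of WT 3, SAMHD1 KO 2 and DKO 3 has in common. Among the libraries outside this set, the median difference was -0.51 in MDA5 KO against WT, -0.62 in DKO against WT, -0.62 in DKO against SAMHD1 KO and -0.03 in SAMHD1 KO against WT. Within the set, where each genotype has 1 library and MDA5 KO none, the median difference was -2.05 in DKO against WT, -1.23 in DKO against SAMHD1 KO and -0.75 in SAMHD1 KO against WT, where 69 of 74 genes were lower.

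**Figure D4:**
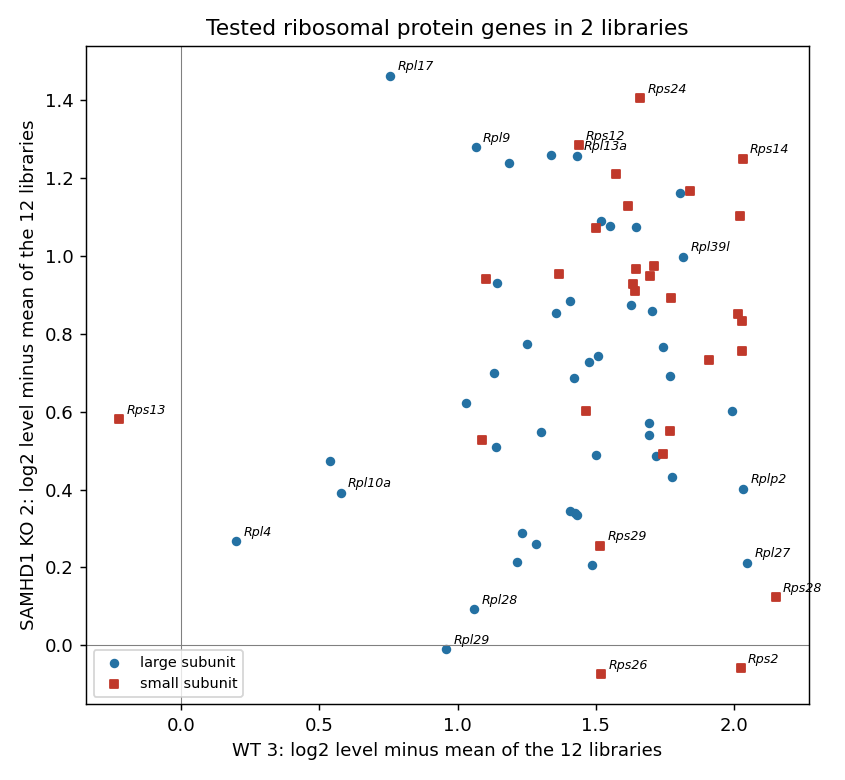
Log2 level minus the 12-library mean in WT 3 (x) and SAMHD1 KO 2 (y) for the 74 tested ribosomal protein genes, large subunit as circles and small subunit as squares. Rps2 and Rps26 are high in WT 3 and near 0 in SAMHD1 KO 2, while Rpl17 and Rpl9 are higher in SAMHD1 KO 2 than in WT 3.

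WT 3 and SAMHD1 KO 2 and 3 were above the gene's own mean in 73, 71 and 71 of the 74 genes, but by amounts that differed from gene to gene. The deviations of SAMHD1 KO 2 and 3 were correlated over the 74 genes (Pearson r 0.94, Spearman 0.94), whereas those of WT 3 and SAMHD1 KO 2 were weakly so (Pearson r 0.11, Spearman 0.11); these correlations are descriptions over genes that share the same 12-library mean. Rps2 deviated by 2.02 in WT 3 and by -0.06 and -0.10 in SAMHD1 KO 2 and 3. Rps28 deviated by 2.15 in WT 3 and by 0.12 and 0.14 in the SAMHD1 KO pair, Rps26 by 1.52 against -0.07 and -0.01, and the stalk gene Rplp2 by 2.03 against 0.40 and 0.28. In the other direction, Rpl17 deviated by 0.76 in WT 3 and by 1.46 and 1.34 in SAMHD1 KO 2 and 3, and Rpl9 by 1.07 against 1.28 and 1.15. Rps12 (1.44 against 1.28 and 1.24) and Rpl13a (1.43 against 1.26 and 1.10) were high in all of them. Rps12, Rpl13a and the other genes of these groups were named after their values were seen.

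Small-subunit genes differed somewhat more than large-subunit genes. The median log2 difference was -1.12 for the 29 small-subunit genes and -0.85 for the 45 tested large-subunit genes in MDA5 KO against WT, and -1.02 and -0.72 in DKO against SAMHD1 KO. The mean level of large-subunit minus small-subunit genes was -0.61 ± 0.15 (SD, n = 3) in WT, -0.61 ± 0.066 in SAMHD1 KO, -0.46 ± 0.078 in MDA5 KO and -0.46 ± 0.044 in DKO. By library it ran from -0.78 in WT 3 to -0.39 in MDA5 KO 2, and WT 1 (-0.48) lay within the range of the libraries without MDA5. In WT 3 small-subunit genes deviated by a mean of 1.63 and large-subunit genes by 1.39.

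**Figure D5:**
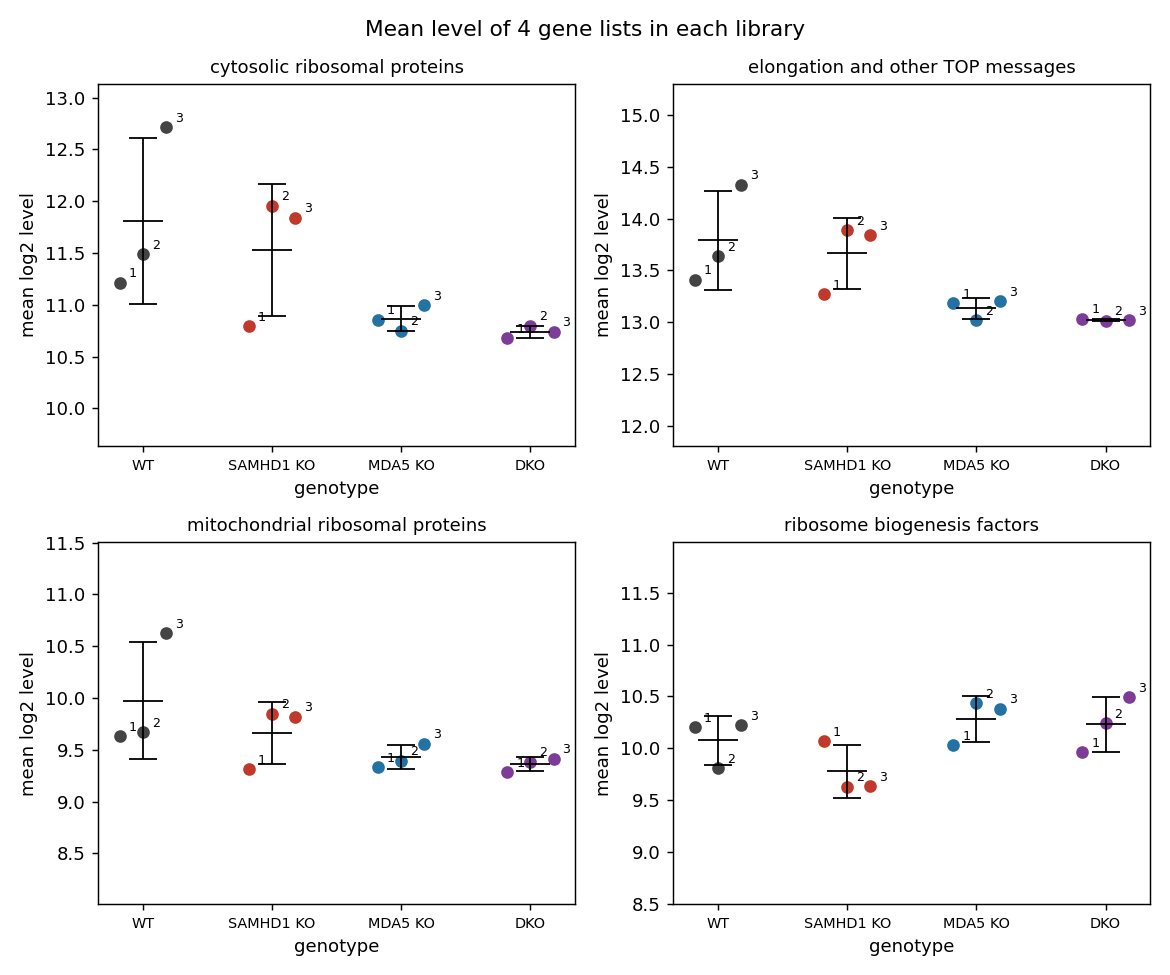
Mean log2 level of 4 gene lists in each library (points, labelled by replicate number), with genotype mean and SD as bars; each panel spans the same range of log2 units. The cytosolic ribosomal proteins are at 12.72 in WT 3 and 10.68 to 10.99 in the 6 libraries without MDA5, while ribosome biogenesis factors are lowest in SAMHD1 KO 2 and 3, at 9.63.

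Of 7 other ribosomal protein genes, among them Fau, Rack1, Rps3a1, Rpl22l1, Rpl7l1 and Rps27l, all were lower in MDA5 KO than in WT. The median was -1.01, and in DKO against SAMHD1 KO all were again lower, with a median of -0.72. Across all tested genes, 45.6% and 48.3% were lower in these comparisons. Rack1, the scaffold protein of the small subunit, stood at 73077, 91823 and 279801 in WT, 54136, 140483 and 129126 in SAMHD1 KO, 45911 to 60230 in MDA5 KO and 43086 to 48624 in DKO. The 152 tested pseudogene rows had medians of -1.07 and -1.01 in these comparisons, with 150 lower in each. Reads from a parent gene and its copies cannot be told apart here, so these are not independent of the 74 genes.

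Of 19 elongation factors and other messages known to carry TOP motifs, 16 were lower in MDA5 KO than in WT, with a median of -0.75. In DKO against SAMHD1 KO, 18 were lower, with a median of -0.69. The shares lower over all tested genes were 45.6% and 48.3%. Eef1b2, an exchange factor for elongation factor eEF1A, stood at 21594, 25561 and 70861 in WT and 12990 to 17010 in MDA5 KO (-1.17 ± 0.41 SE). Tpt1, the translationally controlled tumour protein, differed by -1.21 ± 0.41 in that comparison. The translation factor Eif4b (0.35) and the RNA-binding protein Hnrnpa1 (0.12) were on the other side, and none of the 19 passed an adjusted p of 0.05 in limma.

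All 77 mitochondrial ribosomal protein genes, whose products form a separate ribosome, were lower in MDA5 KO than in WT, with a median of -0.53. In DKO against SAMHD1 KO, 65 of 77 were lower, with a median of -0.30. The shares lower over all tested genes were 45.6% and 48.3%. The summed level of the mitochondrial list was 147082 normalised reads in WT 3 and 55972 to 85464 in the other libraries. The medians of 23 initiation factors were -0.16 and 0.02 in the same comparisons.

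Of 39 ribosome biogenesis factors, 25 were higher in MDA5 KO than in WT (median 0.32) and 36 were higher in DKO than in SAMHD1 KO (median 0.43). Utp20, a component of the small-subunit processome, differed by 1.45 ± 0.43 SE in the former comparison and Rrp12, which acts in pre-ribosome export, by 1.48 ± 0.51 in the latter, while Nop10 was at -0.72 and -0.63. Of 15 tested regulators of ribosomal protein output, 11 were higher in both comparisons, with medians of 0.44 and 0.28. The regulators were not divided into those that raise and those that lower this output, so the count gives no direction for it. Across all tested genes, 45.6% were lower in MDA5 KO than in WT and 48.3% in DKO than in SAMHD1 KO. Larp1 stood at 4497, 3137 and 1789 in WT, 6391, 3765 and 3760 in SAMHD1 KO, 5673 to 7433 in MDA5 KO and 6268 to 8025 in DKO, with its lowest value in WT 3. Myc, a transcription factor that drives ribosome synthesis, stood at 578 and 587 in SAMHD1 KO 2 and 3 and at 1553 to 2332 in the other 10 libraries. None of these genes passed an adjusted p of 0.05 in limma.

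Of 13 non-coding host genes of small nucleolar RNAs, 9 were lower in MDA5 KO than in WT, with a median of -0.56. In DKO against SAMHD1 KO, 10 were lower, with a median of -0.90. The shares lower over all tested genes were 45.6% and 48.3%. Zfas1 (-1.55 ± 0.54 SE) and Snhg1 (-1.56 ± 0.45) were the lowest in DKO against SAMHD1 KO. Among the 74 ribosomal protein genes, 27 hold a small nucleolar RNA gene in GENCODE M21, and the median deviation in WT 3 was 1.41 for these and 1.63 for the other 47, and in SAMHD1 KO 2 it was 0.55 and 0.78.

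Gene length and proliferation genes varied with the libraries. Among protein-coding genes split into 4 classes of like size by the length given in the tables, the median deviation in WT 3 went from 0.63 in the shortest class (up to 2607 bases) to -0.88 in the longest. In the 6 libraries without MDA5 it went from between -0.15 and -0.02 in the shortest class to between 0.07 and 0.24 in the longest, and in SAMHD1 KO 1 from -0.16 to 0.19. In SAMHD1 KO 2 it went from 0.17 to -0.08. Of the 74 ribosomal protein genes, 53 fall in the shortest class, and their median deviation in WT 3 was 1.55, above the 0.63 of the class. The part of gene length in the differences was not tested. The mean log2 level of 15 proliferation genes was 11.26 in WT 3, 7.63 in SAMHD1 KO 1 and 8.97 to 10.22 in the other libraries, and its part was not tested either.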

How the data were processed

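RNA of untreated peritoneal macrophages was sequenced in 12 libraries, 3 of each of 4 genotypes. The authors deposited 6 tables, 1 for each pair of genotypes, with log2 expression per library, a mean signal per gene and their own fold changes with p-values. The submitters' processing notes name STAR, Salmon, R 4.1.2 and DESeq2 and the builds GRCm38 and mm10, and the labels' protocol names pBWA, bedtools and an Ensembl gene annotation; which of these made the tables is not given in the sources used here. The deposited log2 columns were found to be on a variance-stabilised scale. On it, 1 set of libraries (WT 3, SAMHD1 KO 2 and DKO 3) and the rest were both shifted gene by gene to a common mean. The deposited mean signal allowed this shift and the scale to be undone. Reads came out whole, within 0.05 of a whole number, for 100% of genes in all 6 tables, and the tables gave the same reads for shared genes.

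Size factors were computed by the median-of-ratios method and applied to the reads before taking log2 of the value plus 1. Genes that reached a CPM of 0.228, which is 10 reads for the library of median depth, in 3 or more libraries were tested with limma 3.58.1 in R 4.3.3 (trend, robust, all 12 libraries in 1 fit, genotype as the term), with Benjamini-Hochberg adjustment over 15130 genes. Fold changes are on the log2 (value plus 1) scale, which understates those of low genes. No deposited column holds counts, and no test for counts was run on the recovered reads. Totals of 33234361 to 58345425 reads limit the precision of low genes most; p-values cover the spread between libraries. The genes to be named were those of the highest and lowest level, the largest and smallest SD, the 5 most positive and 5 most negative differences in a comparison, the stalk genes and Rpsa, the copies of restricted expression, and the extremes of each related list; not all are printed. The genes and lists were chosen with earlier results of these data known. Values of some single genes are not reported here. Rps27rt, whose symbol ends in letters, was left out. The steps were tested on simulated data.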

Additional observations from a re-analysis of the deposited data

How the results depend on the processing

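No ribosomal protein gene passed an adjusted p of 0.05 under other pseudocounts, filters, size factors or library totals, with only the genotypes compared in the fit, with the adjusted set as a term, or with SAMHD1 KO 2 and 3 averaged, an alternative chosen after seeing the data. Array quality weights, whose estimation reported incomplete convergence, called 47 in SAMHD1 KO against WT (6829 of all 15130 tested genes), 61 in MDA5 KO against WT (4392), 68 in DKO against WT (5765), 68 in DKO against SAMHD1 KO (6795), 66 in SAMHD1 KO against MDA5 KO (6724), 21 in the interaction (1333) and 70 in the contrast of both MDA5-deficient with both MDA5-proficient genotypes (7685), all in either direction; they moved the median to 0.39 in SAMHD1 KO against WT and to -0.59 in the interaction. The deposited log2 columns called 26 lower in DKO against WT, against 3.31% of all tested genes, and moved the median in MDA5 KO against WT to -0.37. In the deposited columns of MDA5 KO against WT, WT 3 had been given the same mean per gene as the other libraries, MDA5 KO among them. The cause of the shifts under the weights and the deposited columns was not tested.

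Leaving out 1 library at a time gave 0 to 44 genes called in DKO against WT, 0 to 3 in DKO against SAMHD1 KO, 0 to 2 in SAMHD1 KO against MDA5 KO and 0 to 58 in the contrast of MDA5-deficient with MDA5-proficient genotypes, and 0 in the other comparisons; in the fits with the most calls, 4.51%, 0.684%, 0.737% and 7.93% of all genes were called in the same direction. Medians ran from -1.30 to -0.51 in MDA5 KO against WT, -1.43 to -0.63 in DKO against WT, -1.16 to -0.60 in DKO against SAMHD1 KO, -0.59 to 0.21 in SAMHD1 KO against WT, 0.43 to 1.02 in SAMHD1 KO against MDA5 KO, -0.19 to -0.08 in DKO against MDA5 KO and -0.34 to 0.43 in the interaction.

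Among the genes named with differences, sign changes were found in Rps29, Rpl10a, Rps13 and Rps28. In MDA5 KO against WT, Rps29 was at 0.61 with array quality weights, 0.056 with the adjusted set as a term and 0.17 in the deposited log2 columns, and Rpl10a at 0.30 and 0.044 with the weights and the deposited columns. Rps28, at -0.76 in the analysis reported, was at 0.015 in SAMHD1 KO against WT and Rps29 at 0.38 in DKO against WT with the weights. In DKO against SAMHD1 KO, Rpl10a was at 0.046 with library totals and 0.053 with SAMHD1 KO 2 and 3 averaged, and Rps13 at 0.069 and 0.068. Leaving out 1 library gave -0.65 to 0.40 for Rps29, -0.46 to 0.061 for Rpl10a and -0.42 to 0.24 for Rps13 in MDA5 KO against WT. It gave -0.69 to 0.37 for Rps29 and -0.071 to 0.45 for Rpl10a in DKO against WT, and -0.37 to 0.040 for Rps29, -0.30 to 0.10 for Rpl10a and -0.26 to 0.19 for Rps13 in DKO against SAMHD1 KO.

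Without the 5 genes with most reads the share of reads was 1.66% in WT, 1.21% in SAMHD1 KO, 0.719% in MDA5 KO and 0.643% in DKO. Without the copies of restricted expression, large minus small subunit was -0.46 in SAMHD1 KO, -0.30 in MDA5 KO and -0.30 in DKO.

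Correlations of same-numbered libraries' deviations ran from -0.06 to 0.34, and not all were above 0.1 in any comparison, so no pairing was used. By mean chi-square, however, the most alike pairs after SAMHD1 KO 2 and 3 were same-numbered libraries of different genotypes. These were MDA5 KO 1 and DKO 1 (7.88), MDA5 KO 3 and DKO 3 (8.68) and SAMHD1 KO 1 and DKO 1 (10.93). MDA5 KO 2 and DKO 2 were less alike (24.7). What same-numbered libraries have in common was not tested. With the replicate block, 0 of the ribosomal protein genes were called in every comparison. Of all tested genes, 2 were called in SAMHD1 KO against MDA5 KO and 8 in the contrast of MDA5-deficient with MDA5-proficient genotypes. In the other comparisons 0 of all tested genes were called. The fitted differences, such as the median of -0.98 in MDA5 KO against WT, cannot change with the block in this balanced design. Depth limits mainly Rpl39l, Rpl24 and Rps13, the tested genes with the fewest reads.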
